A study of Homo sapiens with 18 samples.

Results

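The 37 genes described here encode proteins of glucose handling in THP-1, a cell line from a human monocytic leukaemia. They were chosen by gene symbol, as the members of glycolysis, the pentose phosphate pathway, lactate export and pyruvate entry, together with HIF1A and ACOD1. All 37 were found among the 57500 genes of the deposited tables. By role they comprised 5 carriers of glucose or lactate, 7 enzymes from glucose to fructose bisphosphate, 4 genes that set the level of fructose 2,6-bisphosphate, 11 genes from fructose bisphosphate to pyruvate and lactate, 5 genes of pyruvate entry, 3 of the pentose phosphate pathway, and HIF1A and ACOD1. RNA was sequenced from 3 THP-1 lines transduced with lentivirus carrying a non-target hairpin (shNT), a hairpin against NR4A2 (shNR4A2) or a hairpin against NR4A3 (shNR4A3). Each was studied at rest (control) and after 2 h with LPS at 2.5 μg/ml, which made 6 groups of 3 libraries and 18 libraries in all. All lines were grown in RPMI under puromycin, and whether each was a clone or a pool was not given in the sources used here. For the experiment the cells of every group were moved to buffered DMEM, for which puromycin is not listed. LPS was added 2 h after this change of medium, which all libraries share. Each hairpin is represented by a single line, so the effect of a hairpin and that of the line that carries it cannot be told apart.

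Glycolysis turns glucose into pyruvate in the cytosol, and the pyruvate either leaves as lactate or enters the mitochondrion through pyruvate dehydrogenase. The pentose phosphate pathway branches off near the start of glycolysis and yields NADPH and ribose. In monocytes and macrophages, LPS is known to shift metabolism towards glycolysis and to induce ACOD1, which makes itaconate from the TCA cycle intermediate cis-aconitate. HIF1A encodes the oxygen-regulated subunit of HIF-1, a transcription factor known for activating glycolytic genes. The NR4A genes encode nuclear receptors that are rapidly induced by inflammatory stimuli.

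The libraries held between 16171161 and 23929138 counts each, with a median of 19639071, and 36 of the 37 members were counted in every library. ACOD1 was the exception. Levels are given as TPM, a per-library measure of transcript abundance computed from the counts and the deposited gene lengths so that genes can be compared per length. Changes are log2 fold changes ± SE from edgeR, scaled by trimmed means (TMM), and a gene was called where its adjusted p over all genes tested was under 0.05. The RNA is a bulk measure, so fewer cells that express a gene and less RNA per cell cannot be told apart. The study describes its replicates as independent experiments, and the labels do not tie libraries to cultures, so the p-values measure the spread between these libraries.

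The hairpins and the stimulus were checked first. NR4A2 stood at 62.2, 74.7 and 51.3 TPM in the shNT libraries with LPS and at 20.5, 28.3 and 14.8 TPM in the shNR4A2 libraries with LPS, a log2 difference of -1.52 ± 0.192 (edgeR adjusted p = 0.00265). In control libraries it was at 4.16, 2.83 and 4.08 TPM in shNT and 1.82, 1.63 and 2.41 TPM in shNR4A2 cells, a difference of -0.91 ± 0.228 (edgeR adjusted p = 0.0359), and this call was lost without shNR4A2 control replicate 1 or 2 or shNT control replicate 1 or 3 (edgeR adjusted p = 0.0728 to 0.124). NR4A3 stood at 30.9, 32.3 and 31.9 TPM in the shNT libraries with LPS against 17.0, 18.2 and 16.7 TPM in the shNR4A3 libraries, a difference of -0.82 ± 0.0799 (edgeR adjusted p = 0.000556). Its control libraries held 58 counts in shNT and 9 in shNR4A3 cells, a depth-corrected ratio of 0.172 (95% counting interval 0.0748 to 0.349). Each hairpin's target was thus lower in its own line, without overlap between the libraries with LPS. NR4A1 was not called between any knockdown line and shNT. Without LPS, NR4A3 held 106 counts in shNR4A2 and 58 in shNT cells, a depth-corrected ratio of 1.63 (95% counting interval 1.17 to 2.28). With LPS that ratio was 1.08 (1.03 to 1.14). Such intervals cover counting error alone. The inflammatory genes TNF, IL1B and CCL20 rose with LPS in all 3 lines, by 5.23, 7.62 and 7.48 on the log2 scale in shNT cells.

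All 10 monocyte markers on the list used were counted in every library, with a summed level of 1230 to 3378 TPM. By mean TPM over all libraries SPI1 was the most abundant, at 532 to 1132 TPM. Another marker, CEBPA, stood above it in the control groups. The means of CEBPA and SPI1 were 1102 and 571 TPM in shNT control and 945 and 657 TPM in shNR4A2 control. In shNR4A3 control they were 1137 and 713 TPM. The summed marker level moved with the groups. It was 2241, 2269 and 1926 TPM in shNT control, 2709, 2655 and 2493 TPM in shNR4A2 control and 3378, 3061 and 2944 TPM in shNR4A3 control, so that the 3 lines did not overlap. With LPS it was 1510, 1347 and 1230 TPM in shNT, 2072, 1977 and 1798 TPM in shNR4A2 and 2443, 2141 and 2236 TPM in shNR4A3 cells. CEBPA, a myeloid transcription factor on the list, fell with LPS by 2.13, 1.89 and 2.39 on the log2 scale in shNT, shNR4A2 and shNR4A3 cells, while SPI1 rose by 0.61, 0.76 and 0.79. LYZ, which encodes lysozyme, was higher than in shNT by 1.68 in shNR4A2 and by 2.26 in shNR4A3 cells without LPS on the log2 scale. CSF1R, the receptor for M-CSF, was higher by 0.77 and 1.02 in the same comparisons. Of the 10 markers, edgeR called 3 higher in shNR4A2 and 5 higher in shNR4A3 than in shNT cells without LPS and none lower, and the others, such as CEBPA, MPO, CD33 and FCGR1A, were not called. LYZ held much of the difference in the sum, at 192 ± 13.6 TPM in shNT, 615 ± 134 TPM in shNR4A2 and 883 ± 167 TPM in shNR4A3 control. Without LYZ, the sum was 1953 ± 200 TPM in shNT, 2003 ± 206 TPM in shNR4A2 and 2245 ± 175 TPM in shNR4A3 control, and the 3 lines overlapped. With LPS the sum without LYZ was 1206 ± 139 TPM in shNT, 1440 ± 134 TPM in shNR4A2 and 1541 ± 50.6 TPM in shNR4A3 cells. There shNR4A3, at 1507 to 1599 TPM, did not overlap shNT, at 1074 to 1351 TPM, while shNR4A2 overlapped both. Summed levels of the other marker lists stayed at or under 1.40 TPM for T cells, 13.6 TPM for B cells with PAX5 the most abundant gene, 0.804 TPM for erythroid cells, 2.42 TPM for epithelial cells and 1.95 TPM for fibroblasts. PAX5, a B cell transcription factor, was at 6.31 ± 1.26 TPM in shNT, 4.34 ± 1.02 TPM in shNR4A2 and 1.68 ± 0.682 TPM in shNR4A3 control, and edgeR called it lower in shNR4A3 than in shNT cells without LPS, by 1.87 on the log2 scale, and with LPS, by 1.74. The B cell sum was 6.41 to 7.69 TPM in shNR4A3 control, below the 9.01 to 13.6 TPM of shNT control. Of the fibroblast markers, LUM was at 0 in the shNT control libraries and at 0.869, 0.599 and 1.18 TPM in shNT LPS. The part of these markers in the differences given below was not tested.

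Taken over the whole pathway, the members' summed level varied little between groups. It was 10755 ± 335 TPM (SD, n = 3) in shNT control and 10744 ± 403 TPM in shNT LPS, 10401 ± 439 and 10584 ± 473 TPM in shNR4A2 control and LPS, and 10384 ± 237 and 10490 ± 320 TPM in shNR4A3 control and LPS. The 11 genes of the lower steps, from aldolase to lactate dehydrogenase, made up 8856 ± 384 TPM of the shNT control sum. ENO1 (enolase 1), GAPDH and ALDOA (aldolase A) ranked 49, 58 and 86 among all genes by TPM in shNT control cells. At the other end ACOD1 ranked 29850, and PFKFB2, an enzyme of fructose 2,6-bisphosphate turnover, ranked 17390. GAPDH, at chr12:6533927-6538374, was at 1874, 2091 and 1984 TPM in shNT control and at 1859, 2058 and 2120 TPM in shNT LPS. In shNR4A2 cells GAPDH was at 1690, 1982 and 1904 TPM in control and 1729, 2027 and 1994 TPM with LPS, and in shNR4A3 cells at 1846, 1968 and 1949 TPM in control and 1776, 1922 and 1955 TPM with LPS. The groups overlapped in every comparison, and GAPDH was not called in any by edgeR without the replicate block. With the block and trimmed means it was called higher with LPS in shNR4A2 cells (edgeR adjusted p = 0.0267) and in shNR4A3 cells (edgeR adjusted p = 0.0159). With library totals and no block its change was 0.09 and 0.00 on the log2 scale in these lines and its mean TPM in shNR4A3 cells was 1921 in control and 1884 with LPS, so its rise depended on the scaling.

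The first question was how LPS moved these genes in each line. In shNT cells 9 of 37 members were called, 6 higher and 3 lower, where 11.6% of the 15711 genes tested were higher and 13.3% lower. In shNR4A2 cells 6 members were higher and 2 lower, against 9.23% and 10.1% of all genes, and in shNR4A3 cells 6 were higher and 3 lower, against 13.1% and 15.0%. The same 6 genes were higher in all 3 lines, namely SLC2A6, SLC16A3, PGK1, PKM, HIF1A and ACOD1, and SLC2A1 and PDK4 were lower in all 3. Of these, ACOD1 was tested only because its LPS libraries passed the filter on low counts. PDK2 was also called lower in shNT and shNR4A3 cells. The members' median change was 0.10 in shNT, 0.17 in shNR4A2 and 0.14 in shNR4A3 cells on the log2 scale, beside medians of -0.01, -0.02 and -0.01 over all genes tested. Members that were not called changed by -0.52 to 0.50 in these comparisons.

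The largest changes with LPS were those of ACOD1, SLC2A6 and PDK4, and their promoters are shown because they are the sequences next to the genes that moved furthest. RefSeq start-site windows (GRCh38.p14) were matched for 34 of the 37 members, 63 windows in all. Each window was 250 bases long. The bases shown are those that precede the gene as the deposited tables place it. This left off 14 bases of the ACOD1 window, 38 of the SLC2A6 window and 0 of the PDK4 window. They lie at chr13:76948261-76948496 on the plus strand for ACOD1, at chr9:133479138-133479349 on the minus strand for SLC2A6 and at chr7:95596517-95596766 on the minus strand for PDK4, and each reads 5′ to 3′ towards the gene. Capitals mark the core letters of the HIF response element, ACGTG or GCGTG on either strand.
ACOD1: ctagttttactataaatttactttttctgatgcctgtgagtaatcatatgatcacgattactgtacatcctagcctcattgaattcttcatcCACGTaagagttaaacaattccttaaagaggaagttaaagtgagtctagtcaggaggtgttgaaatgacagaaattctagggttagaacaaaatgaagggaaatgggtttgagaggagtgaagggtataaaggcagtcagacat
SLC2A6: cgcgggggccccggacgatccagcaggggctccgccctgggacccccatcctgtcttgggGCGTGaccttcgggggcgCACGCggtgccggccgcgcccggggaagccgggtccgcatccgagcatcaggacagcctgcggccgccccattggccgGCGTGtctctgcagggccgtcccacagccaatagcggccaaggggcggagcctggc
PDK4: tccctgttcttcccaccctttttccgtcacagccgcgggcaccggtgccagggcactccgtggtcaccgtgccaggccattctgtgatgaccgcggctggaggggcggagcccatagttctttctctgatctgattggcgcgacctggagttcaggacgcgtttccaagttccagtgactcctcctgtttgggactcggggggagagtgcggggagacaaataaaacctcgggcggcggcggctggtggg
The ACOD1 window held 1 match, the SLC2A6 window 3 and the PDK4 window none. These letters are common, since 43.2% of 35116 RefSeq windows of the same length held them, beside 34 of the 63 members' windows, or 54%. The NR4A monomer site, AAAGGTCA on either strand, was in 1.05% of all windows and in none of the 63. A kappa B motif was in 5.21% of all windows and in 4 of the 63, those of PDHA1, PFKFB3 and PFKM. A match describes the letters in the window and not a bound site.

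Of the carriers, SLC2A6 (chr9:133471095-133479137, minus strand), which encodes the glucose transporter family protein GLUT6, rose most. It was at 9.53, 10.8 and 10.6 TPM in shNT control and at 387, 305 and 416 TPM in shNT LPS. In shNR4A2 cells it went from 10.6, 10.4 and 10.3 TPM to 410, 261 and 468 TPM, and in shNR4A3 cells from 13.7, 12.8 and 10.1 TPM to 568, 341 and 510 TPM. Every LPS library stood far above every control library, and replicate 2 was the lowest of each LPS group. The change was 5.39 ± 0.147 in shNT (edgeR adjusted p = 3.85e-12), 5.47 ± 0.242 in shNR4A2 (edgeR adjusted p = 8.15e-09) and 5.52 ± 0.234 in shNR4A3 cells (edgeR adjusted p = 2.84e-08) on the log2 scale, or 41.8-, 44.2- and 45.8-fold.

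SLC2A1 (chr1:42925375-42959173, minus strand), which encodes the widely expressed glucose transporter GLUT1, fell. It was at 264, 258 and 231 TPM in shNT control and at 154, 173 and 123 TPM in shNT LPS. It went from 313, 333 and 277 TPM to 159, 212 and 125 TPM in shNR4A2 cells and from 214, 248 and 203 TPM to 98.9, 148 and 95.3 TPM in shNR4A3 cells. Control and LPS libraries did not overlap in any line. The change was -0.53 ± 0.108 in shNT (edgeR adjusted p = 0.00263), -0.64 ± 0.156 in shNR4A2 (edgeR adjusted p = 0.0118) and -0.74 ± 0.132 in shNR4A3 cells (edgeR adjusted p = 0.00159). In shNR4A2 cells the call was lost without control replicate 2 (edgeR adjusted p = 0.0606) or LPS replicate 3 (edgeR adjusted p = 0.0524).

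As a share of the TPM of the 3 glucose carriers listed, SLC2A1 held 93.8% ± 0.593 (SD, n = 3) in shNT control and 28.9% ± 6.61 in shNT LPS. SLC2A6 held 3.88% ± 0.453 and 70.1% ± 6.71 in the same groups. SLC2A6 held 68.1% ± 12.2 in shNR4A2 LPS and 79.0% ± 8.58 in shNR4A3 LPS, against 3.25% ± 0.270 and 5.12% ± 0.685 in their controls. SLC2A3, the high-affinity transporter GLUT3, held at most 2.63% in any library. The most abundant listed carrier mRNA thus passed from SLC2A1 to SLC2A6 within 2 h of LPS in all 3 lines. SLC16A3, which encodes the lactate exporter MCT4, rose by 0.43 ± 0.111 in shNT (edgeR adjusted p = 0.0105), 0.53 ± 0.136 in shNR4A2 (edgeR adjusted p = 0.0158) and 0.46 ± 0.106 in shNR4A3 cells (edgeR adjusted p = 0.0076). Its TPM overlapped between control and LPS libraries, at 259, 212 and 203 against 294, 250 and 239 TPM in shNT cells. In shNR4A2 cells the call was lost without control replicate 1 or 3 or LPS replicate 1 (edgeR adjusted p = 0.0504 to 0.0779).

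**Figure D1:**
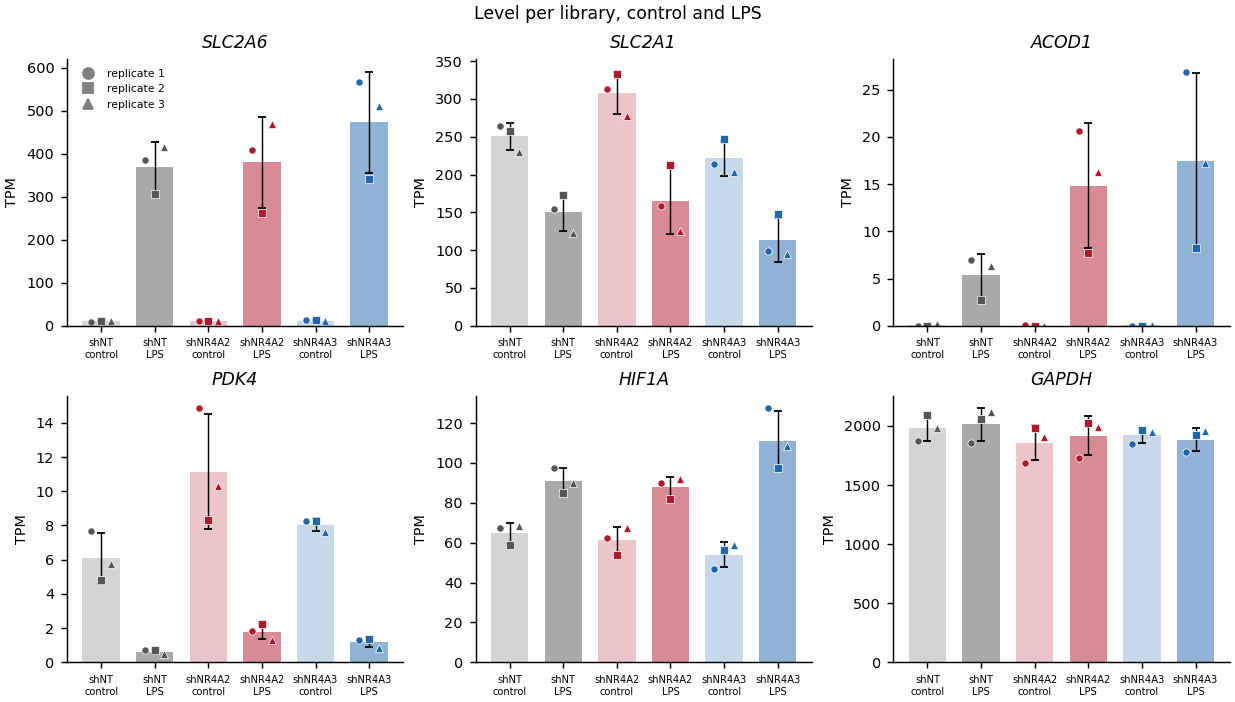
TPM per library for SLC2A6, SLC2A1, ACOD1, PDK4, HIF1A and GAPDH in each of the 6 groups. All but GAPDH were called with LPS in every line by edgeR without the replicate block. Bars are means, error bars SD (n = 3) and points single libraries by replicate number, with SLC2A6 rising and SLC2A1 and PDK4 falling with LPS in every line.

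**Figure D2:**
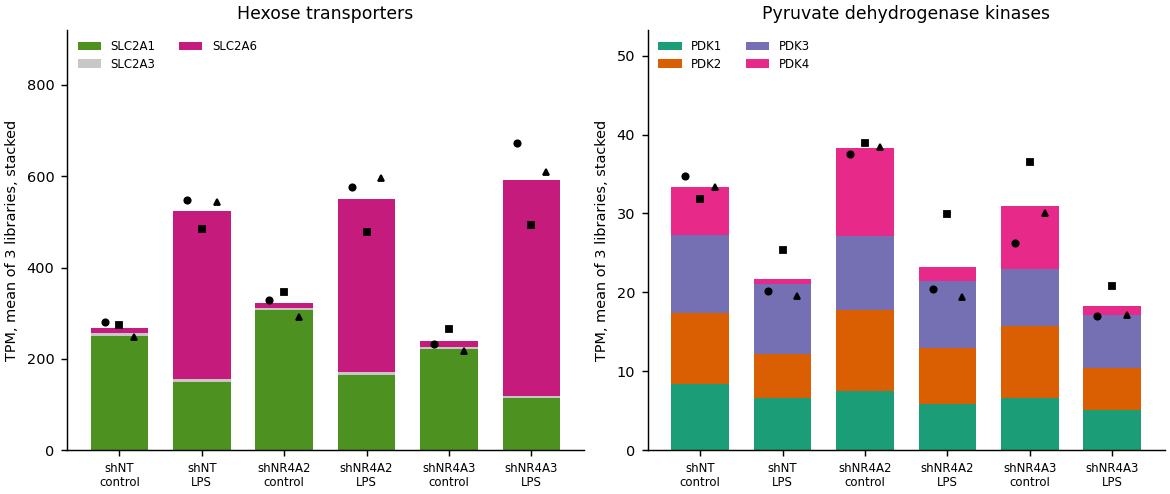
Mean TPM of 3 libraries in each group, stacked by gene, for the carriers SLC2A1, SLC2A3 and SLC2A6 and for the kinases PDK1, PDK2, PDK3 and PDK4. Points are the summed TPM of single libraries by replicate number. SLC2A6 takes the place of SLC2A1 as the largest part with LPS, and the part of PDK4 falls.

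Among the enzymes from glucose to fructose bisphosphate and the PFKFB group, no member was called with LPS in any line by edgeR with trimmed means and no replicate block. DESeq2 called none of these 11 genes either. With the replicate number as a block, edgeR called HK2 and PFKFB4 lower in both knockdown lines, at an adjusted p of 0.027 and 0.0165 in shNR4A2 and 0.0355 and 0.00459 in shNR4A3 cells. The calls made with library totals are given with that scaling. At an unadjusted p under 0.05 edgeR passed 1 of them in shNT, 0 in shNR4A2 and 1 in shNR4A3 cells, where 35.9%, 31.8% and 39.4% of all genes passed. PFKFB4 is a further enzyme of fructose 2,6-bisphosphate turnover. It was at 6.64, 8.25 and 6.60 TPM in shNT control and 4.77, 5.34 and 3.95 TPM in shNT LPS, without overlap. Its change of -0.40 was not called (edgeR adjusted p = 0.0762). HK1, the broadly expressed hexokinase, held 42.8% ± 2.07 of the hexokinase TPM in shNT control and 43.5% ± 0.389 in shNT LPS, beside HK2 with 28.1% ± 4.67 and 27.5% ± 2.75 and HK3 with 29.1% ± 2.74 in control cells. In shNR4A2 cells the share of HK1 was 45.4% ± 0.925 in control and 49.4% ± 1.29 with LPS, without overlap. In shNR4A3 cells that of PFKFB4 among the PFKFB group was 11.9% ± 1.28 in control and 7.51% ± 2.57 with LPS, also without overlap. Of the phosphofructokinases, which commit the sugar to glycolysis, PFKL held 54.3% ± 1.48 and PFKP 45.2% ± 1.47 of the step in shNT control, and PFKM, the muscle form, held under 1% in every group.

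From fructose bisphosphate to lactate, PGK1, phosphoglycerate kinase, and PKM, pyruvate kinase, were called higher with LPS in all 3 lines, by little. PGK1 changed by 0.26 ± 0.0771 in shNT (edgeR adjusted p = 0.0231), 0.36 ± 0.108 in shNR4A2 (edgeR adjusted p = 0.0352) and 0.27 ± 0.0787 in shNR4A3 cells (edgeR adjusted p = 0.026). Its TPM hardly differed, at 655, 673 and 687 TPM in shNT control and 645, 736 and 696 TPM in shNT LPS, and the groups overlapped. PKM changed by 0.23 ± 0.0758 in shNT (edgeR adjusted p = 0.0388), 0.44 ± 0.117 in shNR4A2 (edgeR adjusted p = 0.0198) and 0.33 ± 0.0895 in shNR4A3 cells (edgeR adjusted p = 0.0183). PKM was at 376, 373 and 368 TPM in shNT control and 376, 378 and 374 TPM in shNT LPS, and at 420, 410 and 402 TPM against 469, 442 and 471 TPM in shNR4A2 cells, where the groups did not overlap. In shNT cells the PGK1 call was lost without control replicate 1 or 3 or LPS replicate 2 or 3 (edgeR adjusted p up to 0.0726), and the PKM call was lost without any of the libraries but LPS replicate 2 (edgeR adjusted p up to 0.117). In shNR4A2 cells both calls were lost without control or LPS replicate 1 or 3 (edgeR adjusted p up to 0.136). In shNR4A3 cells PGK1 lost its call without any library but LPS replicate 2 (edgeR adjusted p up to 0.106) and PKM without control replicate 2 or 3 or LPS replicate 1 or 3 (edgeR adjusted p up to 0.0781).

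The rises of PGK1, PKM and SLC16A3 with LPS were called under one scaling and not the other. When library totals were used in place of trimmed means, an alternative added after the data were seen, the median change of all genes with LPS was -0.188 in shNT, -0.233 in shNR4A2 and -0.211 in shNR4A3 cells on the log2 scale. Under that scaling 3 members were called higher and 4 lower in shNT, where 7.06% of genes were higher and 26.5% lower. In shNR4A2 cells 3 were higher and 4 lower, against 6.40% and 22.4% of genes, and in shNR4A3 cells 3 were higher and 7 lower, against 8.58% and 29.3%. Beside SLC2A1 and PDK4, those lower were PFKFB4 and PDK2 in shNT, HK2 and HK3 in shNR4A2, and HK1, HK2, PFKFB4, PDK2 and TKT in shNR4A3 cells. SLC2A6, HIF1A and ACOD1 stayed higher and SLC2A1 and PDK4 lower in all 3 lines under both scalings, and PDK2 stayed lower in shNT and shNR4A3 cells. PGK1, PKM and SLC16A3 were not called in any line with library totals, with changes of 0.09, 0.06 and 0.26 in shNT cells, which lie above the median of all genes there. GAPDH changed by 0.24 in shNT, 0.31 in shNR4A2 and 0.20 in shNR4A3 cells with trimmed means and by 0.06, 0.09 and 0.00 with library totals, none of them called.

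**Figure D3:**
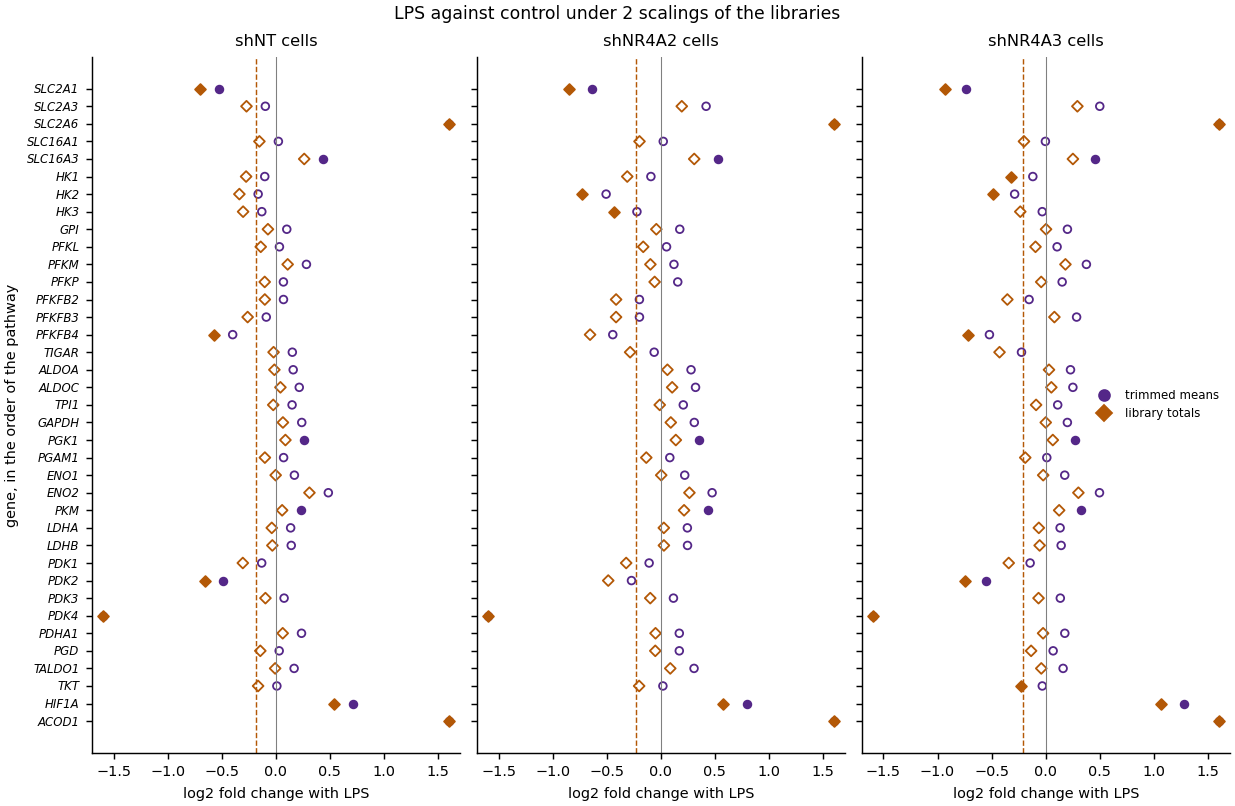
Log2 fold change with LPS of each member under trimmed means and under library totals, in the 3 lines. Filled points have an adjusted p under 0.05, the dashed line is the median of all genes under library totals, and points beyond the axis are drawn at its edge. SLC2A6, ACOD1, HIF1A, SLC2A1 and PDK4 keep their side under both scalings.

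At pyruvate entry, PDK4 (chr7:95583499-95596491, minus strand) fell. It encodes a kinase that switches off pyruvate dehydrogenase. PDK4 was at 7.70, 4.79 and 5.72 TPM in shNT control and at 0.694, 0.718 and 0.463 TPM in shNT LPS. In shNR4A2 cells it went from 14.8, 8.31 and 10.3 TPM to 1.83, 2.21 and 1.32 TPM, and in shNR4A3 cells from 8.29, 8.26 and 7.62 TPM to 1.31, 1.38 and 0.852 TPM. Control and LPS libraries stood apart in every line. The change was -3.07 ± 0.256 in shNT (edgeR adjusted p = 8.16e-07), -2.38 ± 0.257 in shNR4A2 (edgeR adjusted p = 2.88e-05) and -2.55 ± 0.209 in shNR4A3 cells (edgeR adjusted p = 5.5e-06).

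Of the other pyruvate dehydrogenase kinases, PDK2 fell by 0.49 on the log2 scale in shNT (edgeR adjusted p = 0.0266) and by 0.55 in shNR4A3 cells (edgeR adjusted p = 0.017), and its change of -0.27 in shNR4A2 cells was not called (edgeR adjusted p = 0.39). PDK2 was at 8.84, 9.80 and 8.47 TPM in shNT control and 6.17, 6.02 and 4.52 TPM in shNT LPS, without overlap. In shNT cells the call was lost without control replicate 1 or 2 or LPS replicate 2 or 3 (edgeR adjusted p = 0.0519 to 0.12), and in shNR4A3 cells without control replicate 2 or LPS replicate 1 or 3 (edgeR adjusted p = 0.0611 to 0.0638). The PDK2 exons share 38.6% of their bases with another gene, SAMD14, which limits what its counts say. PDK1 and PDK3 were not called. PDK4 held 18.1% of the TPM of the 4 kinases in shNT control and 2.88% in shNT LPS, 29.2% and 7.74% in shNR4A2 cells, and 26.5% and 6.44% in shNR4A3 cells.

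HIF1A (chr14:61695513-61748259, plus strand) rose with LPS in every line. It was at 67.3, 58.8 and 68.2 TPM in shNT control and 97.7, 84.9 and 89.9 TPM in shNT LPS. It went from 62.2, 53.9 and 67.3 TPM to 89.9, 82.0 and 91.9 TPM in shNR4A2 cells and from 46.9, 56.4 and 58.7 TPM to 127, 97.4 and 108 TPM in shNR4A3 cells. No LPS library overlapped the controls of its line, and the shNR4A3 LPS libraries held the highest value of all 18. The change was 0.71 ± 0.0905 in shNT (edgeR adjusted p = 5.16e-05), 0.80 ± 0.128 in shNR4A2 (edgeR adjusted p = 0.00073) and 1.28 ± 0.132 in shNR4A3 cells (edgeR adjusted p = 3.64e-05).

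ACOD1 (chr13:76948497-76958642, plus strand) was close to absent without LPS. The 3 shNT control libraries held 2 counts together, and the shNR4A2 and shNR4A3 controls 1 count each. With LPS it was at 6.96, 2.73 and 6.28 TPM in shNT, 20.6, 7.66 and 16.2 TPM in shNR4A2 and 26.9, 8.29 and 17.2 TPM in shNR4A3 cells. Replicate 2 was the lowest in each line, and in both knockdown lines every LPS library lay above the highest shNT library. The summed counts with LPS were 205 in shNT, 519 in shNR4A2 and 622 in shNR4A3 cells. Their ratio to the control counts, corrected for depth, was 95.3 (95% counting interval 26.1 to 792) in shNT, 591 (106 to 23410) in shNR4A2 and 578 (103 to 22850) in shNR4A3 cells. These intervals cover counting error alone. ACOD1 passed the filter on low counts through the LPS libraries alone, so that it had to differ, and its call as higher by edgeR in all 3 lines adds nothing to these counts. The fold changes edgeR fits against such low counts depend on its prior count.

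With the replicate number as a block, 16 members were called with LPS in shNR4A2 cells, 12 higher and 4 lower, where 30.1% of all genes were called in either direction. In shNR4A3 cells 17 were called, 12 higher and 5 lower, against 39.4% of all genes. In both lines the added members included ALDOA, ALDOC, ENO2 and GAPDH among those higher and HK2 and PFKFB4 among those lower. These blocked fits used trimmed means. With library totals and no block, the changes of ALDOA, ALDOC and GAPDH were 0.06, 0.10 and 0.09 in shNR4A2 cells, from 0.28, 0.32 and 0.31 with trimmed means. In shNR4A3 cells they were 0.03, 0.05 and 0.00, from 0.23, 0.25 and 0.20. ENO2 kept more of its change with library totals, at 0.26 from 0.47 in shNR4A2 and 0.30 from 0.50 in shNR4A3 cells. A block with library totals was not run.

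The second question was whether the members differed between knockdown and shNT cells. By edgeR without the replicate block, the members called in the 4 comparisons with shNT were higher in the knockdown line, whereas with the block some were lower, as given with the blocked counts. The 2 comparisons without LPS share the shNT control libraries, and the 2 with LPS share the shNT LPS libraries, so they are not independent of each other. In shNR4A2 cells 5 of the 36 members tested without LPS were higher, namely HK1, HK3, PFKFB3, PDK4 and PGD, where 3.63% of genes were higher and 2.82% lower. With LPS 3 of 37 were higher, namely HK1, PDK4 and PGD, against 4.31% of genes higher and 2.65% lower. In shNR4A3 cells HK1 and TKT were higher without LPS, against 3.91% of genes higher and 3.32% lower, and HK1, TKT and ACOD1 with LPS, against 3.99% higher and 2.46% lower. The members' median change was 0.07 and 0.11 in shNR4A2 cells without and with LPS and 0.03 and 0.05 in shNR4A3 cells, beside medians of all genes from -0.01 to 0.00.

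HK1 (chr10:69269984-69401882, plus strand), the first enzyme of the pathway, was higher in both knockdown lines. Without LPS it was at 29.9, 26.9 and 24.6 TPM in shNT, 45.9, 34.4 and 37.2 TPM in shNR4A2 and 39.5, 33.8 and 35.5 TPM in shNR4A3 cells. In LPS libraries HK1 was at 24.4, 20.9 and 19.8 TPM, 32.7, 33.0 and 26.0 TPM and 29.1, 28.3 and 28.2 TPM in the same order. Neither knockdown line overlapped shNT in either condition. The difference in shNR4A2 cells was 0.53 ± 0.133 without LPS (edgeR adjusted p = 0.0363) and 0.55 ± 0.122 with LPS (edgeR adjusted p = 0.0295). In shNR4A3 cells it was 0.47 ± 0.116 without LPS (edgeR adjusted p = 0.0258) and 0.45 ± 0.102 with LPS (edgeR adjusted p = 0.0293). These calls were near the threshold. In shNR4A2 cells the call was lost without control replicate 1 or any shNT control library (edgeR adjusted p up to 0.159), and with LPS without LPS replicate 1 or shNT LPS replicate 2 or 3 (edgeR adjusted p up to 0.137). In shNR4A3 cells it was lost without control replicate 1 or 3 or shNT control replicate 2 or 3 (edgeR adjusted p up to 0.111), and with LPS without LPS replicate 1 or 3 or shNT LPS replicate 2 or 3 (edgeR adjusted p up to 0.129). HK3, a hexokinase of blood cells, was at 20.8, 19.0 and 15.6 TPM in shNT control and 29.6, 26.5 and 26.8 TPM in shNR4A2 control, a difference of 0.58 ± 0.142 (edgeR adjusted p = 0.0326). Its call was lost without shNR4A2 control replicate 1 or 3 or shNT control replicate 2 or 3 (edgeR adjusted p up to 0.139). With LPS HK3 was at 12.2 to 16.9 TPM in shNT and 17.9 to 22.3 TPM in shNR4A2 cells, also without overlap. That difference was not called by edgeR without the replicate block.

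PFKFB3 (chr10:6144934-6235545, plus strand) encodes the kinase that makes fructose 2,6-bisphosphate, an activator of phosphofructokinase. Without LPS it was at 60.3, 47.6 and 48.8 TPM in shNT, 90.1, 89.1 and 70.9 TPM in shNR4A2 and 56.4, 72.4 and 54.1 TPM in shNR4A3 cells. In LPS libraries PFKFB3 was at 51.4, 43.0 and 32.5 TPM in shNT, 65.5, 69.9 and 46.6 TPM in shNR4A2 and 75.8, 64.4 and 49.2 TPM in shNR4A3 cells. The shNR4A2 control libraries stood above all shNT controls, and the other groups overlapped shNT. The difference of shNR4A2 from shNT without LPS was 0.68 ± 0.133 (edgeR adjusted p = 0.0111), a call that was lost without shNT control replicate 3 (edgeR adjusted p = 0.0559). With LPS it was 0.57 ± 0.175 in shNR4A2 (edgeR adjusted p = 0.0853, and 5.57e-09 with the replicate block) and 0.64 ± 0.184 in shNR4A3 cells (edgeR adjusted p = 0.0712, and 7.03e-06 with the replicate block). PFKFB3 held 86.6% to 91.5% of the TPM of the 3 PFKFB genes in the group means.

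All 3 enzymes of the pentose phosphate pathway on the list had higher mean TPM in both knockdown lines than in shNT. Their summed level was 629 ± 31.0 TPM (SD, n = 3) in shNT, 825 ± 68.7 TPM in shNR4A2 and 725 ± 32.2 TPM in shNR4A3 control libraries, and 573 ± 33.0, 789 ± 118 and 658 ± 44.6 TPM with LPS. PGD (chr1:10398592-10420144, plus strand) encodes 6-phosphogluconate dehydrogenase, which yields NADPH. PGD was at 299, 235 and 272 TPM in shNT control and 353, 366 and 428 TPM in shNR4A2 control, a difference of 0.51 ± 0.107 (edgeR adjusted p = 0.0156). With LPS it was at 248, 215 and 243 TPM in shNT and 325, 308 and 433 TPM in shNR4A2 cells, a difference of 0.66 ± 0.151 (edgeR adjusted p = 0.0332). The shNR4A2 libraries stood above shNT in both conditions. PGD in shNR4A3 cells, at 334, 300 and 299 TPM in control and 292, 244 and 297 TPM in LPS libraries, was not called against shNT (edgeR adjusted p = 0.141 and 0.164), but was with the replicate block (edgeR adjusted p = 0.0125 and 0.00259). The shNR4A2 call was lost without shNT control replicate 2 or 3 (edgeR adjusted p = 0.079 and 0.0708) and, with LPS, without any library but shNR4A2 LPS replicate 2 (edgeR adjusted p up to 0.138).

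TKT (chr3:53224707-53256052, minus strand) encodes transketolase, which returns pentoses to glycolysis. It was at 100, 94.4 and 90.3 TPM in shNT control and 125, 124 and 122 TPM in shNR4A3 control, a difference of 0.43 ± 0.086 (edgeR adjusted p = 0.00776) that was called in all 12 alternatives. In LPS libraries TKT was at 85.6, 78.4 and 82.3 TPM in shNT and 102, 104 and 105 TPM in shNR4A3 cells, a difference of 0.39 ± 0.0803 (edgeR adjusted p = 0.0196). In shNR4A2 cells TKT was at 110, 117 and 118 TPM in control and 93.7, 96.5 and 99.7 TPM in LPS libraries, with differences from shNT of 0.28 and 0.29 that edgeR called with the replicate block (edgeR adjusted p = 0.00717 and 0.000682) and not without it (edgeR adjusted p = 0.113 and 0.0909). The libraries of both knockdown lines stood above all shNT libraries in both conditions. The call with LPS was lost without shNR4A3 LPS replicate 1 or 3 or shNT LPS replicate 2 or 3 (edgeR adjusted p up to 0.102). TALDO1, transaldolase, which works beside transketolase, was at 252, 264 and 280 TPM in shNT control and 296, 338 and 351 TPM in shNR4A2 control, where the difference of 0.31 ± 0.0956 was not called (edgeR adjusted p = 0.0811, and 0.00194 with the replicate block). With LPS the difference was 0.45 ± 0.127 (edgeR adjusted p = 0.0656, and 8.95e-07 with the replicate block).

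**Figure D4:**
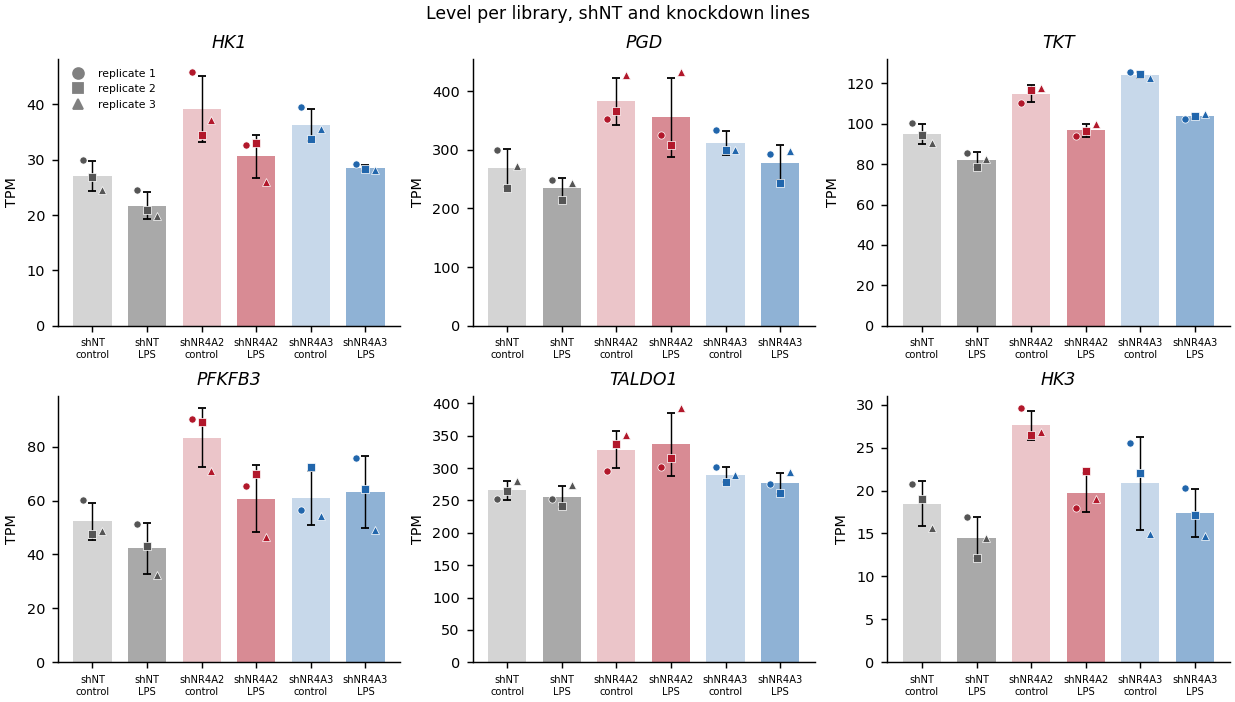
TPM per library for HK1, PGD, TKT, PFKFB3, TALDO1 and HK3 in the 6 groups. Bars are means, error bars SD (n = 3) and points single libraries by replicate number. The libraries of both knockdown lines stand above the shNT libraries for HK1 and TKT, and the shNR4A2 libraries for PGD, TALDO1 and HK3, with and without LPS.

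PDK4 was higher in shNR4A2 than in shNT cells, by 0.88 ± 0.226 without LPS (edgeR adjusted p = 0.0411) and by 1.57 ± 0.295 with LPS (edgeR adjusted p = 0.0151), where its TPM did not overlap that of shNT. The call was lost without shNR4A2 control replicate 1 or shNT control replicate 2 or 3 (edgeR adjusted p = 0.126 to 0.137) and, with LPS, without shNR4A2 LPS replicate 1 or shNT LPS replicate 2 or 3 (edgeR adjusted p = 0.052 to 0.0659). In shNR4A3 cells the differences of 0.45 ± 0.174 and 0.97 ± 0.313 were not called (edgeR adjusted p = 0.148 and 0.101, and 0.0444 and 0.0372 with the replicate block). PDK4 thus fell with LPS in each line from a level that was higher in shNR4A2 cells.

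ACOD1 with LPS was higher in shNR4A3 than in shNT cells by 1.79 ± 0.445 (edgeR adjusted p = 0.0436). The depth-corrected count ratio was 3.35 (95% counting interval 2.86 to 3.94). The TPM ratios of libraries with the same replicate number were 3.86, 3.03 and 2.74. The edgeR call was lost without shNR4A3 LPS replicate 1 or 3 or any shNT LPS library (edgeR adjusted p = 0.0773 to 0.141), and DESeq2 did not make it (DESeq2 adjusted p = 0.0612). In shNR4A2 cells the difference from shNT was 1.54 with a count ratio of 2.76 (2.35 to 3.26) and TPM ratios of 2.96, 2.80 and 2.59, and edgeR did not call it (edgeR adjusted p = 0.0636), although it did with the replicate block (edgeR adjusted p = 5.46e-11) and DESeq2 did without it (DESeq2 adjusted p = 0.0029). The ratios within a replicate number thus spread less than the levels within a group.

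With the replicate number as a block many more members passed. In shNR4A2 cells 17 of 36 were called without LPS, 12 higher and 5 lower, against 23.6% of all genes in either direction, and 18 of 37 with LPS, 17 higher and 1 lower, against 28.1%. In shNR4A3 cells 8 were called without LPS, 6 higher and 2 lower, against 14.8%, and 13 with LPS, 11 higher and 2 lower, against 21.8%. TALDO1, TIGAR, TKT, PFKM, PFKP and SLC2A1 were among the members added as higher in shNR4A2 cells in both conditions. SLC16A1, which encodes the lactate carrier MCT1, was the member added as lower there in both conditions. In shNR4A3 cells PDK4, PGAM1 and PGD were added as higher and PDK1 as lower in both conditions.

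**Figure D5:**
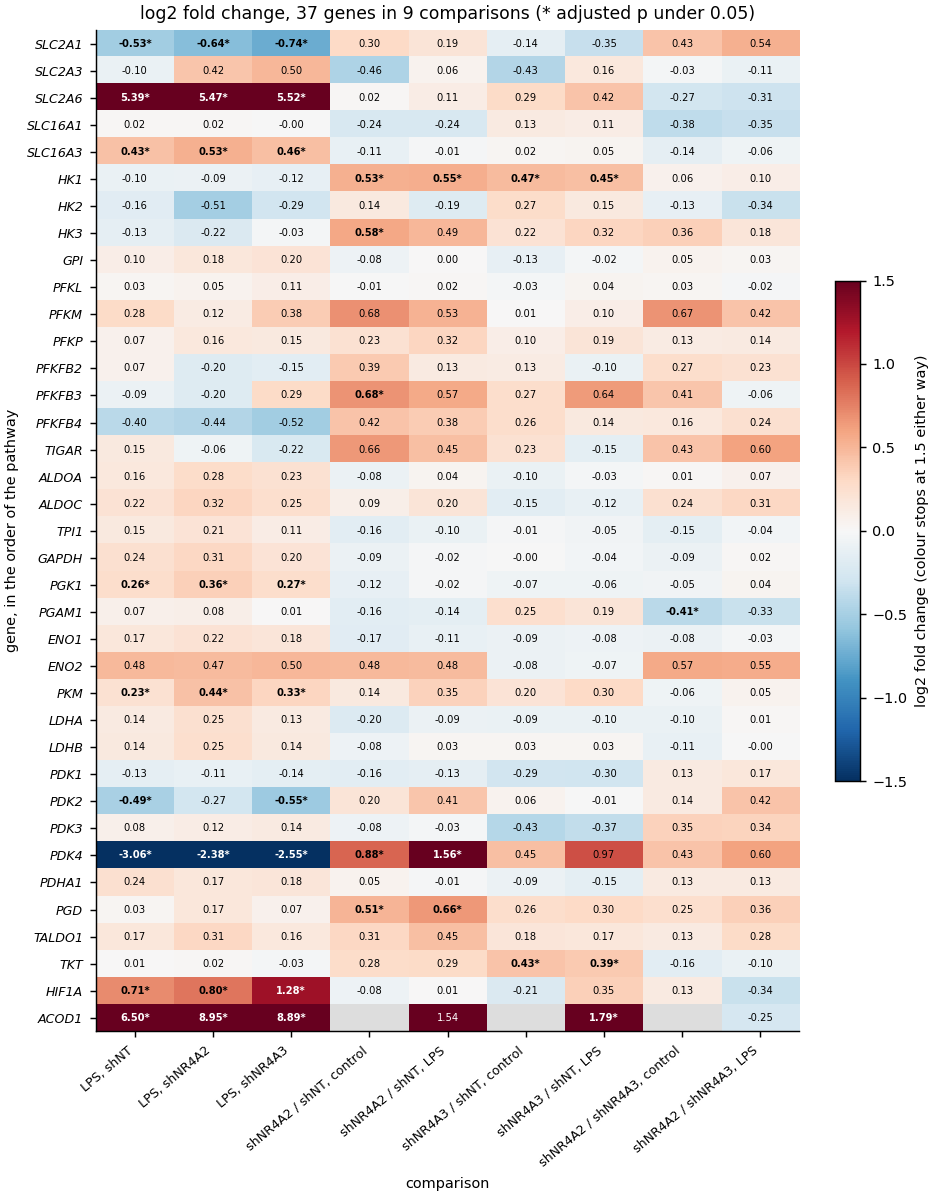
Log2 fold change of each member (rows, by role) in the 9 comparisons of 2 groups (columns), from edgeR with trimmed means and no replicate block, with calls at an adjusted p under 0.05 marked. Grey marks ACOD1 where it was not tested, and its values with LPS against control depend on the prior count. Called with LPS in all 3 lines are SLC2A6, SLC16A3, PGK1, PKM, HIF1A, ACOD1, SLC2A1 and PDK4, and calls against shNT are higher in the knockdown lines.

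Set directly against each other without LPS, shNR4A2 and shNR4A3 cells differed in 1 of 36 members, where 1.94% of genes were higher and 1.14% lower in shNR4A2. PGAM1 (chr10:97426160-97433441, plus strand), phosphoglycerate mutase, was at 389, 379 and 371 TPM in shNR4A2 control, 481, 499 and 487 TPM in shNR4A3 control and 400, 455 and 420 TPM in shNT control. The shNT libraries thus lay between the knockdown lines. The difference between the knockdown lines was -0.41 ± 0.0914 (edgeR adjusted p = 0.03), and the call was lost without any library but shNR4A2 control replicate 2 (edgeR adjusted p = 0.0679 to 0.139). With LPS no member was called by edgeR, which called 1.27% of genes higher and 1.06% lower. At an unadjusted p under 0.05 edgeR passed 6 members, beside 17.8% of all genes. DESeq2 called 1 member, beside 4.44% of all genes. With the replicate block 5 members were called without LPS, against 11.6% of genes, and 12 with LPS, against 23.6%. SLC2A1 was higher and PGAM1 and SLC16A1 were lower in shNR4A2 cells in both blocked comparisons.

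The response to LPS itself was then compared between lines by an interaction term. For shNR4A2 against shNT cells 0% of 16674 genes were called higher and 0% lower by edgeR, with 365 genes and no member at an unadjusted p under 0.05, and DESeq2 called 2 genes. For shNR4A3 against shNT cells 0% of 16428 genes were called higher and 0% lower by edgeR, with 824 genes and 1 member at an unadjusted p under 0.05, and DESeq2 called 8 genes and no member. The member was HIF1A, whose rise with LPS was larger in shNR4A3 than in shNT cells by 0.56 ± 0.167 on the log2 scale (edgeR unadjusted p = 0.00402, adjusted p = 0.844). For ACOD1 the terms were 2.45 ± 2.45 and 2.43 ± 2.84, with standard errors set by the near-empty controls. The terms were 0.69 and 0.51 for PDK4 and 0.09 and 0.13 for SLC2A6 in shNR4A2 and shNR4A3 cells. Without the filter on low counts, edgeR called the HIF1A term in shNR4A3 cells, at 0.59 with an adjusted p of 0.0217, and no other member.

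Over all 9 comparisons of 2 groups, 15 members were called at least once and 22 in none by edgeR without the replicate block. In single comparisons this fit called 2.33% to 28.1% of all genes. The share of all genes called at least once over the 9 is not given here. The block was used in the 8 of these comparisons whose replicate numbers paired the libraries. With it, 17 of the 22 members were called at least once, GAPDH, ALDOA and ENO1 among them. In single comparisons it called 11.6% to 39.4% of all genes. The share of other genes gained in this way is not given here, so neither count sets the members apart from other genes. Those 22 members included GAPDH, ENO1, ALDOA, LDHA, LDHB and TPI1, which are among the most abundant members. Their changes without the block lay between -0.52 and 0.68 on the log2 scale. Exons of 21 members overlap those of another gene, 18 of them on the opposite strand, and the strand setting of the counting was not given in the sources used here, so that reads of such pairs cannot be told apart. For 15 members pseudogenes named after them are annotated, 108 in all, and each member's set held under 1% of its counts.

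Neighbouring pathways gave the following background. Of 33 other glycolysis and pentose phosphate genes, 20 were tested with LPS in shNT cells, of which GPD2 and ADPGK were higher and BPGM lower, beside 11.6% of all genes higher and 13.3% lower. GPD2, the mitochondrial glycerol phosphate dehydrogenase, rose in all 3 lines, by 1.12, 1.09 and 1.22 on the log2 scale in shNT, shNR4A2 and shNR4A3 cells. BPGM, which makes 2,3-bisphosphoglycerate, fell by 0.62 in shNT and by 0.65 in shNR4A3 cells, and SLC2A10, a further carrier of the GLUT family, by 0.89 in shNR4A2 cells. SLC2A10 was lower in shNR4A3 than in shNT cells by 1.15 ± 0.199 without LPS (edgeR adjusted p = 0.00318).

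Of 32 genes of pyruvate import, pyruvate dehydrogenase and the TCA cycle, all tested, 4 were higher and 3 lower with LPS in shNT, 3 and 3 in shNR4A2, and 6 and 3 in shNR4A3 cells. Of all genes tested, 11.6%, 9.23% and 13.1% were higher and 13.3%, 10.1% and 15.0% lower in the same lines. Those lower were the same in all lines. IDH1, the cytosolic isocitrate dehydrogenase, fell by 1.15, 1.12 and 1.13, PDP2 by 1.09, 1.19 and 1.19 and PDP1 by 0.97, 0.60 and 0.73 in shNT, shNR4A2 and shNR4A3 cells. PDP1 and PDP2 encode the phosphatases that switch pyruvate dehydrogenase on, against the kinases of the PDK family. PDHX, a structural subunit of the complex, rose by 0.34, 0.53 and 0.75 in the same order, and MPC1, a subunit of the mitochondrial pyruvate carrier, by 0.31, 0.41 and 0.43. Between lines, ACO1, the cytosolic aconitase, was lower in shNR4A2 than in shNT cells by 0.58 without and 0.49 with LPS, and no gene of this list was called by edgeR in shNR4A3 cells against shNT, where 2 and 4 had an unadjusted p under 0.05 without and with LPS, beside 20.9% and 23.0% of all genes, and DESeq2 called none.

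Of 22 HIF partners and other hypoxia-responsive genes, 18 were tested in shNT, 19 in shNR4A2 and 18 in shNR4A3 cells with LPS, and 5, 5 and 4 were higher and 3, 2 and 5 lower, beside 11.6%, 9.23% and 13.1% of all genes higher and 13.3%, 10.1% and 15.0% lower. ADM, which encodes adrenomedullin, rose by 2.88, 3.31 and 3.15 and DDIT4, an inhibitor of mTORC1, by 1.06, 1.10 and 1.27 on the log2 scale. The histone demethylase gene KDM3A fell by 0.94, 0.85 and 0.89 and BHLHE40, a transcriptional repressor, by 1.03, 0.70 and 0.40. Between lines, MXI1, a MYC antagonist, was lower in both knockdown lines, by 0.65 and 0.54 in shNR4A2 and by 0.47 and 0.65 in shNR4A3 cells without and with LPS. EPAS1, which encodes the HIF2 subunit, was higher in shNR4A2 than in shNT cells by 0.62 and 0.75.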

How the data were processed

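The 18 THP-1 libraries fell into 6 groups of 3 by their labels. The authors selected polyadenylated RNA, sequenced both ends to 150 bases, and deposited tables of unnormalized counts of reads for each Ensembl gene. Per the labels the submitters' processing notes name Trimmomatic 0.36, STAR 2.5.2b, featureCounts of Subread 1.5.2 and GRCh38. The strand setting is not given in the sources used here, so antisense overlaps cannot be separated. Gene symbols came from GENCODE 29, which matched 56898 of 57500 genes. The members and lists were chosen with earlier results of these data known.

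TPM was computed here from the counts and the deposited gene lengths. Counts were compared between pairs of groups in edgeR 4.0.16 (R 4.3.3, limma 3.58.1) by the quasi-likelihood test, after filterByExpr and TMM scaling, with Benjamini-Hochberg adjustment over all genes tested and a threshold of 0.05. The LPS response was compared between lines by an interaction term on the 12 libraries of both lines. A test on single values of 3 against 3 libraries could not go below an exact permutation p of 0.1, so none was used. Counting intervals are exact 95% intervals. Tables and figures were made with Python 3.11.15, pandas 2.3.3, numpy 2.4.6, scipy 1.17.1 and matplotlib 3.10.9, and start-site windows were taken from RefSeq (GRCh38.p14).

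Values in every library are given for members called with a change of at least 1.5-fold, for ACOD1, HIF1A, GAPDH and SLC2A1 and for isoforms of a step. From other lists, up to 3 called genes of largest change in either direction are named. The result of 1 gene is not reported here. Other members given by library, such as PGK1, PKM, TKT, TALDO1 and PGAM1, were chosen after their values were seen.

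Whether replicate numbers pair libraries was checked by correlating residuals of libraries with the same number over all genes. Every such correlation was over 0.1 in 8 comparisons of 2 groups, with a range of 0.159 to 0.533, and blocked counts of calls are given there. It was not in LPS against control in shNT cells (0.0598 for replicate 2) or in the interaction terms (0.0174 and 0.0266). Libraries with different numbers were not correlated for comparison. Whether a number marks a shared experiment is not given in the sources used here. Alternatives were DESeq2 1.42.0, DESeq2-type size factors, library totals, no filter, the replicate block, a fit of all 18 libraries, and each library left out in turn. Counts were simulated with 200 changed genes. In comparisons of 2 groups edgeR recovered 98% to 100% of changes of 2-fold and 78% to 83% of 1.5-fold. In the interaction terms it recovered 93% and 95% of 2-fold and 32% and 44% of 1.5-fold. The simulation gave every gene the same spread, changed only genes above a count limit and had no shared replicates. The rates hold for that setting, and recovery at the spread of genes such as ACOD1 and PDK4 was not tested. Library totals were 16171161 to 23929138 counts, which limits the precision for genes of few counts such as ACOD1.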

Additional observations from a re-analysis of the deposited data

How the results depend on the processing

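The calls of SLC2A6, PDK4 and HIF1A with LPS held in every line under all 12 alternatives each. The number of members called with LPS was 6 to 9 in shNT cells (9 as reported), 5 to 9 in shNR4A2 (8) and 6 to 10 in shNR4A3 cells (9) when single libraries were left out, where 18.7% to 21.3%, 12.9% to 20.7% and 19.9% to 30.7% of all genes were called. It was 14 in shNR4A2 cells in a fit of all 18 libraries, which called 27.2% of all genes there against 19.3% as reported. Against shNT, leaving out single libraries gave 0 to 5 members in shNR4A2 cells without LPS (5 as reported) and 0 to 6 with LPS (3), and 1 to 3 in shNR4A3 cells without LPS (2) and 0 to 8 with LPS (3). The shares of all genes were 3.19% to 6.92%, 2.13% to 9.23%, 4.12% to 6.16% and 2.38% to 10.6% in the same order. For shNR4A2 with LPS, DESeq2 gave 8, no filter 8 and all 18 libraries 7, beside 8.20%, 4.57% and 9.99% of all genes (6.96% as reported). For shNR4A3 with LPS, no filter gave 8 and all 18 libraries 5, beside 4.57% and 7.14% (6.45% as reported). Between the knockdown lines without LPS (1 as reported), DESeq2 and no filter gave 3, library totals and all 18 libraries 2, and leaving out single libraries 0 to 1, beside 4.21%, 2.19%, 3.02%, 4.16% and 1.56% to 2.97% of all genes (3.08% as reported). With LPS (0 as reported), DESeq2 gave 1, no filter 2 and all 18 libraries 3, beside 4.44%, 2.80% and 6.09% (2.33% as reported). Without a filter the interaction term of shNR4A3 gave 1 member (0 as reported), beside 0.314% of all genes. The cause was not tested.

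With the replicate number as a block, members called were 16 and 17 with LPS in shNR4A2 and shNR4A3 cells, 17 and 18 in shNR4A2 against shNT without and with LPS, 8 and 13 in shNR4A3 against shNT, and 5 and 12 between the knockdown lines. In LPS against control in shNT cells, where the lowest correlation was 0.0598, the block gave 13 members, beside 32.0% of all genes. In the interaction terms it gave 8 and 22 genes, 0 of them members. With library totals the change with LPS turned sign in 16 members in shNT, 11 in shNR4A2 and 11 in shNR4A3 cells, 0 of them called under either scaling, such as ENO1 in shNR4A3 cells from 0.176 to -0.0233. TKT there, at -0.0317, ranged from -0.0629 to 0.0161 when single libraries were left out, turning without shNR4A3 control replicate 1 or LPS replicate 2. None of these TKT values was called.

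The 3 libraries of a group, a single line per hairpin and 2 or fewer ACOD1 counts per control group limit what these comparisons can resolve. On simulated counts with the same spread for every gene, changes of 1.5-fold were recovered less often than those of 2-fold. This held above all in the interaction terms.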
